A study of Mus musculus with 54 samples.

Results

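Prepulse inhibition is the damping of the startle reflex by a weak sound that comes just before the startling one, and inbred mouse strains differ in it. The 4 genes described here, Tmem87a, Baiap2l1, Rbm45 and AI506816, were followed across 54 arrays of mouse brain RNA. They are 4 of the 18193 genes with a probe set of their own, and they were selected on their measured levels, which were high in C3H HeJ, BalbC/J or both against C57BL6/J, so their differences between those 3 strains are the reason they are described and are given without a test. The platform annotation gave these 4 genes 5 of the 45037 probe sets (45101 less 64 controls): 1424454_at for Tmem87a, 1424951_at and 1451539_at for Baiap2l1, 1437904_at for Rbm45 and 1439483_at for AI506816. The pick had no numeric threshold. For all members but Baiap2l1 a single probe set carries the result.

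The 54 arrays covered hippocampus, striatum and brainstem of 6 inbred strains (C3H HeJ, BalbC/J, C57BL6/J, C57BL10/J, C57BLKS/J and C57L/J), none with an engineered allele or drug. All mice were male, tissue was taken at postnatal day 60, and every array held RNA pooled from 3 mice, so the spread between arrays is a spread between pools. Each strain and tissue had 3 arrays, 1 from mice tested for prepulse inhibition from day 50 on and 2 from untested mice; 6 of the 12 mice of a strain were tested. The 3 tissues of a strain came from the same set of mice.

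The genes have unrelated roles. Tmem87a encodes a multi-pass membrane protein of the Golgi apparatus, one of the GOST family that joins a GOLD-like domain to a bundle of membrane spans, and it has been linked to Golgi transport and to ion flow that sets Golgi pH. Baiap2l1 (also known as IRTKS) encodes an I-BAR protein, which bends the cell membrane outward and ties it to actin filaments through partners such as Eps8, and is best known from epithelial microvilli. Rbm45 encodes a nuclear RNA-binding protein found in inclusions of motor neuron disease and frontotemporal dementia. AI506816 is a long noncoding RNA gene. In the RefSeq gene table (assembly GRCm38.p6) Tmem87a and Rbm45 lie on chromosome 2, and Baiap2l1 and AI506816 on chromosome 5.

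The promoters of Tmem87a, Rbm45 and Baiap2l1 are shown because the first pair follows nearly the same pattern over strains while Baiap2l1 differs from it by tissue. Each runs from 250 bases before to 50 bases after the RefSeq start on GRCm38.p6, 5′ to 3′ on the gene's strand. That reference comes from C57BL/6J, the strain with the low signal, so these are not the letters of C3H HeJ or BalbC/J. Capitals mark GC boxes (GGGCGG or its reverse CCGCCC) and ETS-type sites (CCGGAAG or its reverse CTTCCGG), searched on both strands with overlapping matches counted.
Tmem87a, chr2:120404067-120404366, minus strand: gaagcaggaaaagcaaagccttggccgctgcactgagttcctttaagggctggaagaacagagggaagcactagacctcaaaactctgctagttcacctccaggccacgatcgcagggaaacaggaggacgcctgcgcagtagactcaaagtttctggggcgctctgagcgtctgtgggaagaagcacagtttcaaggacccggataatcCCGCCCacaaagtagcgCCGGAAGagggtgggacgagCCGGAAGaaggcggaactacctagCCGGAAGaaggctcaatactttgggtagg
Rbm45, chr2:76369734-76370033, plus strand: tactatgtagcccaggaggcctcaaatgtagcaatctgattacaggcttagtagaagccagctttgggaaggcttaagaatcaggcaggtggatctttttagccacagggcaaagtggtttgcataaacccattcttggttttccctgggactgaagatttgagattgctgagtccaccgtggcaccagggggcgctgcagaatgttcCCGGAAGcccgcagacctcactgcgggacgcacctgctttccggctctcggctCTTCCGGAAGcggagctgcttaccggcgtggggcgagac
Baiap2l1, chr5:144358063-144358362, minus strand: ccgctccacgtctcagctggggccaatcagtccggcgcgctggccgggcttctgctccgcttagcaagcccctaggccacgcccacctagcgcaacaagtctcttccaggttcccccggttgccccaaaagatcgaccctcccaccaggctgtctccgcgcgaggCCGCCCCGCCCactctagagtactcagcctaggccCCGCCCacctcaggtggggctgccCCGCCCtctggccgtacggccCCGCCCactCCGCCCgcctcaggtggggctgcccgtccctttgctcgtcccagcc
Tmem87a and Rbm45 each held 3 ETS-type matches, a motif present in 8.86% of 32851 promoters of the same length, and Baiap2l1 and AI506816 held none. In Rbm45 a match on each strand overlaps in the run CTTCCGGAAG. Baiap2l1 held 6 GC boxes, AI506816 2, Tmem87a 1 and Rbm45 none; 35.7% of promoters held at least 1. A CCAAT box (CCAAT or its reverse ATTGG), not marked in capitals, was found 1 time in Baiap2l1 and in none of the other windows. Of all promoters 37.4% held at least 1. No TATA box (TATAAA), E-box (CACGTG) or CRE (TGACGTCA) was found in any of the 4 windows. Baiap2l1 had the highest GC share of the 4, at 71.0%, against 56.0% for Tmem87a, 55.3% for Rbm45, 66.3% for AI506816 and a median of 52.7% over all promoters. These matches describe the letters only.

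Levels are log2 values as deposited. A probe set was called above the floor on an array when it exceeded that array's 40th percentile, which lay between 3.22 and 3.47 on the hippocampus arrays. Marker genes matched the labelled tissues. The 6 hippocampal markers with a probe set averaged 10.49 in hippocampus against 5.95 in striatum and 6.04 in brainstem, and the 4 striatal markers averaged 13.12 in striatum. All but 1 of the 54 arrays, a tested striatum pool of C57L/J, correlated best with an array of the same strain. One brainstem array stood apart, the second from untested C3H HeJ mice, with the 7 cerebellar markers 3.93 log2 units above the median brainstem array and the brainstem markers 1.26 below it. Among the striatum arrays, the second from untested C57L/J mice had the striatal markers 1.05 below the median striatum array and the cortex markers 1.39 above it.

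Tmem87a was high in both C3H HeJ and BalbC/J and at the floor in the 4 C57 strains, in all 3 tissues. In hippocampus its log2 level was 7.69 on the tested and 7.81 and 7.90 on the untested C3H HeJ arrays. The BalbC/J hippocampus arrays read 7.89 (tested), 7.60 and 8.25. The 12 C57-strain hippocampus arrays lay between 1.88 and 2.02, with a median of 1.93. The 2 high strains overlapped each other and none of their arrays came within 5 log2 units of a C57 array. In striatum C3H HeJ read 7.61, 8.90 and 8.11, BalbC/J 8.12, 7.82 and 7.98, and the C57 arrays 1.95 to 2.02. In brainstem C3H HeJ read 7.65, 7.97 and 8.50, BalbC/J 8.97, 9.01 and 9.06, and the C57 arrays 1.93 to 2.01. The 8.50 belongs to the C3H HeJ array rich in cerebellar markers; brainstem was also the only tissue in which BalbC/J lay wholly above C3H HeJ.

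Against C57BL6/J the Tmem87a mean was higher by 5.84, 6.20 and 6.07 log2 units in C3H HeJ hippocampus, striatum and brainstem (SD of the difference 0.12, 0.65 and 0.43, n = 3 arrays per strain). Because C57BL6/J was at the floor, these differences are best read as bounds against the 40th percentile of its arrays: at least 22.2-fold, 32.0-fold and 26.9-fold. In BalbC/J the differences were 5.95, 5.96 and 7.03, or at least 24.0-fold, 27.2-fold and 52.6-fold. Without the C3H HeJ array rich in cerebellar markers, the brainstem difference in C3H HeJ was 5.83. Over all probe sets tested the median difference was between -0.01 and 0.03 in the 6 comparisons, small beside these values. Normalization can itself bring this median near 0, so it describes the deposited values and not a shift of the whole array before processing.

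**Figure D1:**
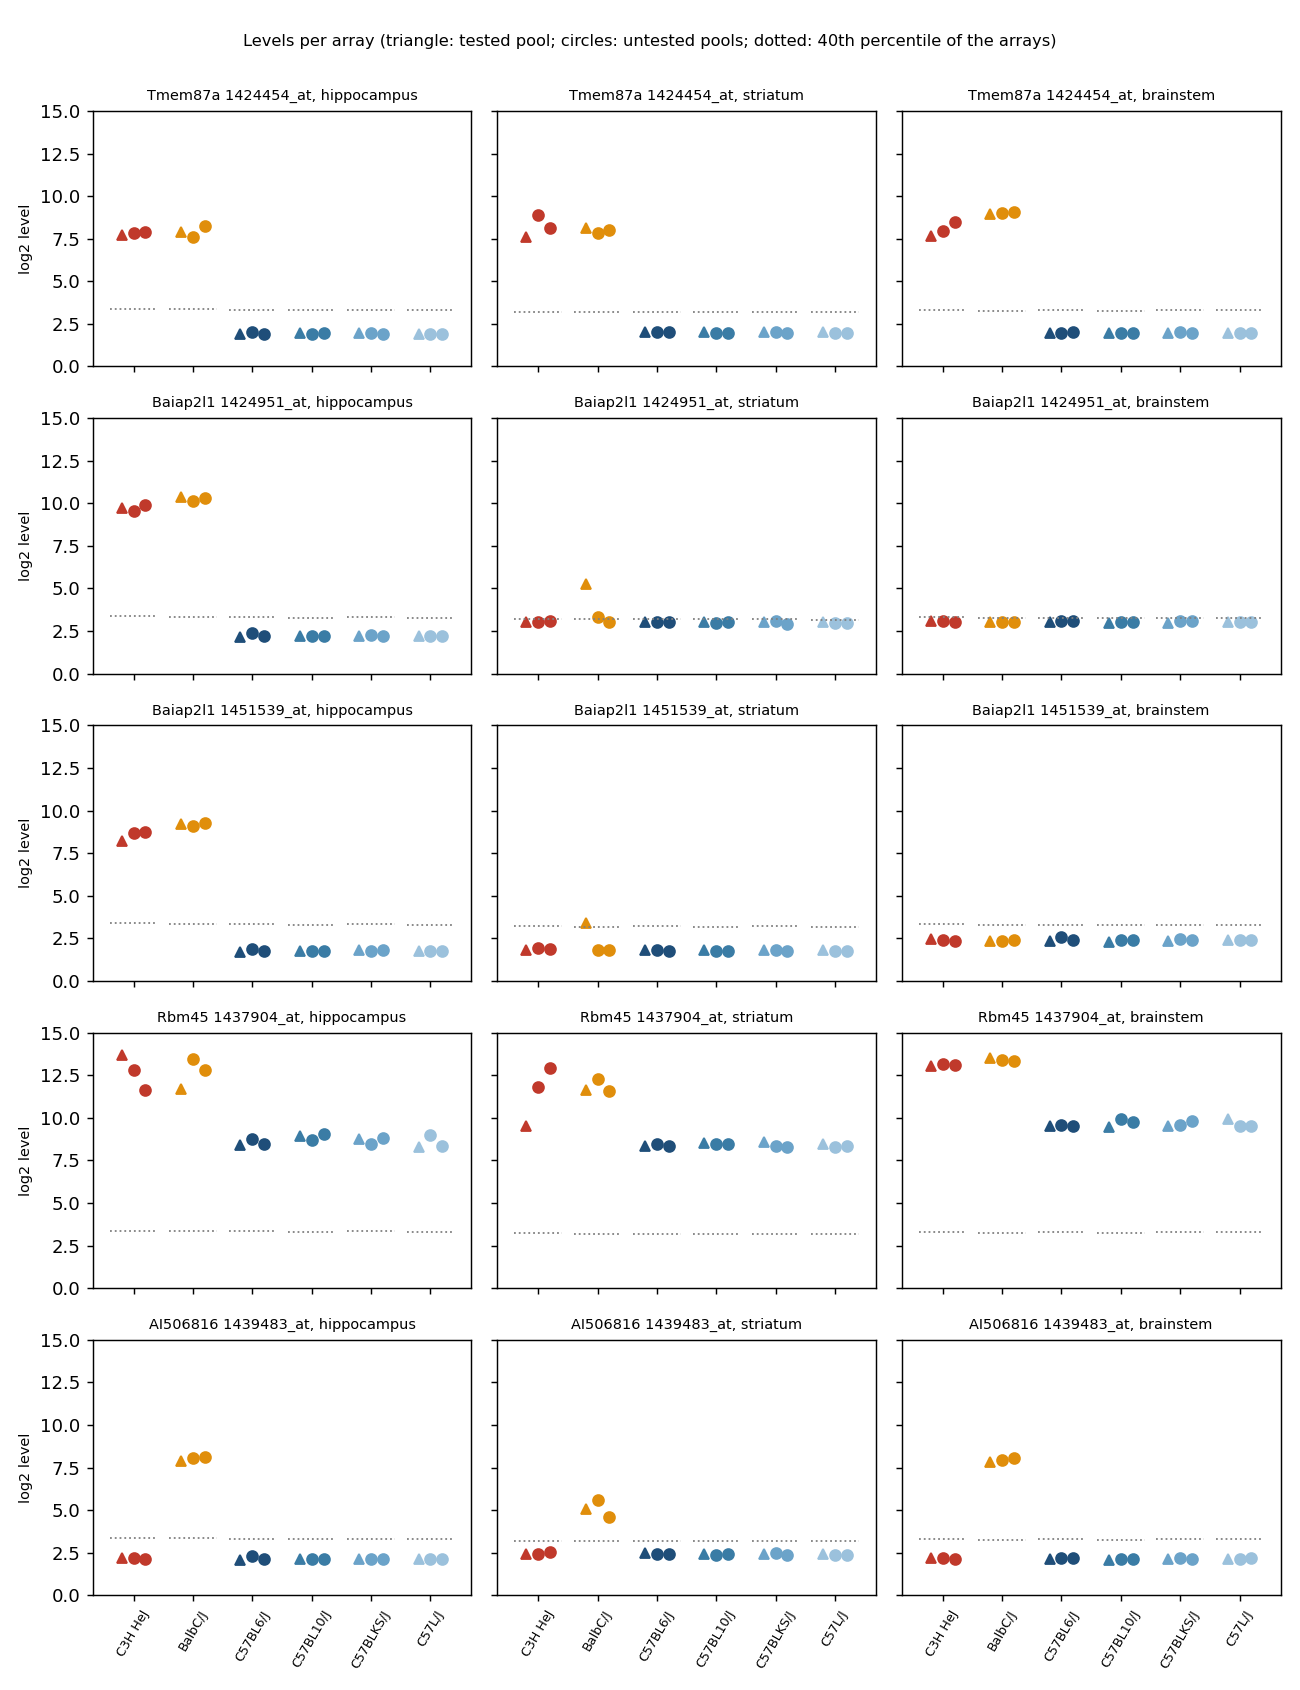
Log2 level of each member probe set (vertical axis) on every array, by strain (horizontal axis) and tissue; triangles are tested pools, circles untested pools and dotted lines the mean 40th percentile of the 3 arrays. Tmem87a is high in C3H HeJ and BalbC/J in all tissues, Baiap2l1 in hippocampus, and AI506816 in BalbC/J, while Rbm45 lies above the dotted line on all 54 arrays.

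Baiap2l1 was high in the same 2 strains, but in hippocampus alone. Its probe set 1424951_at read 9.75 (tested), 9.56 and 9.92 in C3H HeJ hippocampus and 10.35, 10.12 and 10.29 in BalbC/J hippocampus, against 2.16 to 2.36 on the 12 C57 arrays (median 2.23). The second probe set, 1451539_at, read 8.22, 8.69 and 8.76 in C3H HeJ and 9.22, 9.09 and 9.28 in BalbC/J, against 1.72 to 1.88. The 2 probe sets therefore gave the same order of strain groups, with every BalbC/J array above every C3H HeJ array and both far above the C57 arrays. The order of single arrays agreed less: 2 of the 6 C3H HeJ and BalbC/J arrays had the same rank on both probe sets. For 1424951_at the difference from C57BL6/J was at least 85.2-fold in C3H HeJ and at least 121.5-fold in BalbC/J, and for 1451539_at at least 37.6-fold and 58.4-fold.

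In striatum and brainstem the same probe sets sat at the floor. On 1424951_at the C3H HeJ striatum arrays read 3.00, 3.01 and 3.07 and the C57 striatum arrays 2.91 to 3.07. All 18 brainstem arrays read between 2.97 and 3.09 on 1424951_at and between 2.31 and 2.58 on 1451539_at. The exception was BalbC/J striatum, where the tested array read 5.28 on 1424951_at and 3.39 on 1451539_at. Its untested arrays read 3.34 and 3.02 on the first probe set and 1.80 and 1.79 on the second. In whole-tissue RNA, fewer cells of a type and less RNA per cell cannot be told apart.

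The tested BalbC/J striatum array also had higher markers of cortex and hippocampus. The mean of the 4 cortex markers with a probe set was 1.18 log2 units above the median striatum array, and the mean of the 6 hippocampal markers 0.56 above. On the untested BalbC/J striatum arrays the cortex markers were 0.32 and 0.11 below the median, and the hippocampal markers 0.44 and 0.43 below. All 4 cortex markers and 5 of the 6 hippocampal ones were above the floor on every striatum array. The cortex mean ranged from 8.63 to 10.13 in BalbC/J striatum and from 7.69 to 10.34 over all striatum arrays. The choroid plexus markers were 1.94 above the median on the tested BalbC/J striatum array, and 4.48 above and 0.52 below it on the untested ones. Of these markers 1 of 5 was above the floor on every striatum array. Their mean was 7.65, 10.19 and 5.19 on the BalbC/J arrays. The part of these tissues in the Baiap2l1 reading was not tested. With the floor set at the 50th percentile, 1 BalbC/J striatum array in place of 2 was above it on 1424951_at, and none in place of 1 on 1451539_at.

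**Figure D2:**
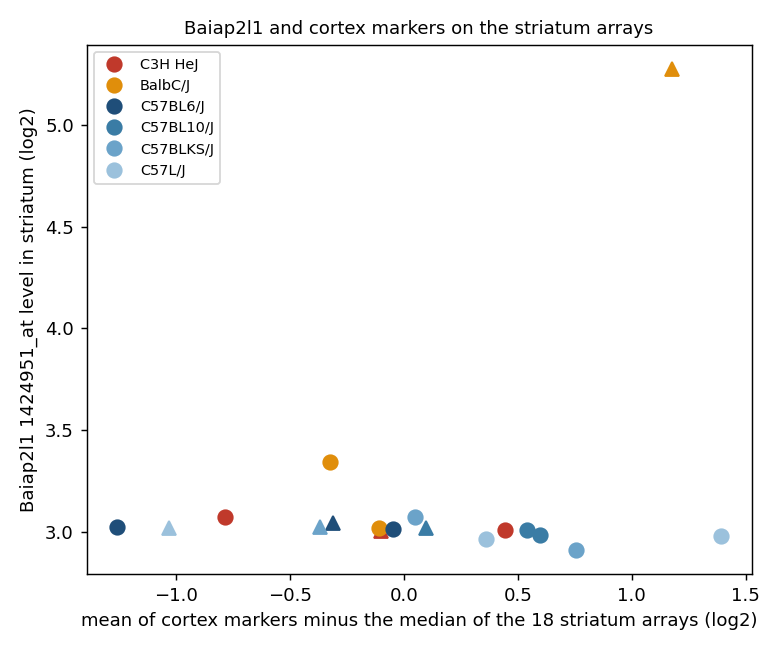
Log2 level of Baiap2l1 probe set 1424951_at on the 18 striatum arrays (vertical axis) against the mean of the cortex markers minus its median over those arrays (horizontal axis, log2); colours are strains, triangles tested pools and circles untested pools. The tested BalbC/J array stands alone at 5.28, with cortex markers 1.18 above the median.

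Rbm45 did not match the label of a gene switched on, because it was well above the floor in every strain. In brainstem the C57 arrays read 9.45 to 9.95, C3H HeJ 13.05, 13.18 and 13.13, and BalbC/J 13.49, 13.41 and 13.32, above C3H HeJ with no overlap. These brainstem arrays were tight, with an SD of 0.06 in C3H HeJ and 0.08 in BalbC/J. The difference from C57BL6/J was measured there with both strains above the floor: 3.59 log2 units or 12.0-fold in C3H HeJ and 3.88 or 14.7-fold in BalbC/J. Unlike the other members, Rbm45 thus showed a graded difference between strains that all had signal.

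In hippocampus and striatum Rbm45 varied widely between pools of the same high strain. C3H HeJ hippocampus read 13.66 (tested), 12.79 and 11.65, an SD of 1.00, and BalbC/J hippocampus 11.70, 13.47 and 12.81, an SD of 0.89. C3H HeJ striatum read 9.51 (tested), 11.81 and 12.95, an SD of 1.75. BalbC/J striatum read 11.66, 12.29 and 11.59. Among probe sets of like level on the same arrays, 99.7% had a smaller SD than Rbm45 in C3H HeJ hippocampus, 99.7% in BalbC/J hippocampus and 99.95% in C3H HeJ striatum. The choroid plexus markers also varied between these pools; 2 of 5 were above the floor on every hippocampus array. Their mean was 8.94, 6.35 and 5.00 on the C3H HeJ hippocampus arrays, in the same order as Rbm45, and 6.01, 9.43 and 5.58 on the BalbC/J ones, where the highest Rbm45 array was also the highest in these markers. On the 12 C57 hippocampus arrays it ranged from 5.22 to 9.72. In C3H HeJ striatum it read 4.98, 5.03 and 4.79, a narrow range beside that of Rbm45. The part of choroid plexus was not tested. In the C57 strains Rbm45 lay within 8.30 to 9.06 in hippocampus and 8.27 to 8.59 in striatum. Even the lowest C3H HeJ striatum array lay above every C57 striatum array. The fold over C57BL6/J was 18.0 and 8.23 in C3H HeJ hippocampus and striatum, and 17.5 and 11.01 in BalbC/J. The C3H HeJ striatum difference of 3.04 log2 units rose to 3.99 without the tested array and dropped to 2.28 without the second untested one.

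AI506816 was high in BalbC/J alone. Its log2 level was 7.90 (tested), 8.04 and 8.15 in BalbC/J hippocampus, 5.07, 5.63 and 4.58 in striatum, and 7.84, 7.96 and 8.04 in brainstem. C3H HeJ lay with the C57 strains: its means were 2.18 in hippocampus, 2.46 in striatum and 2.16 in brainstem, against 2.17, 2.44 and 2.16 in C57BL6/J, all at the floor. The difference between BalbC/J and C57BL6/J was 5.86, 2.66 and 5.79 log2 units, or at least 26.0-fold, 3.69-fold and 25.2-fold. None of the BalbC/J arrays overlapped an array of another strain.

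Few probe sets on the array behave like these. Counting probe sets above the floor on all 3 arrays of both C3H HeJ and BalbC/J, at the floor on all 12 C57 arrays and separated by at least 1 log2 unit, there were 7 in hippocampus and 8 in each other tissue, and 4 passed in all tissues. Of the members Tmem87a was among them in every tissue and Baiap2l1, with both probe sets, in hippocampus. Without the floor condition 46, 46 and 34 probe sets were separated by that gap, Rbm45 among them in hippocampus and brainstem. For BalbC/J alone, 3, 7 and 5 probe sets were on, with 2 in all tissues, one of them AI506816. These counts describe the pattern the members were picked for and support nothing about them.

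The first comparison that the pick did not use is that among C57BL10/J, C57BLKS/J and C57L/J. No member passed the test among these 3 strains: the count was 0 of 5 probe sets tested in hippocampus and 0 of 3 in each of the other tissues (limma's moderated F, Benjamini-Hochberg adjusted p from 0.85 to 1.00). The lowest unadjusted p was 0.710. Over all probe sets, 15.2%, 5.21% and 6.53% passed in the 3 tissues in that order. Rbm45 had the widest spread of means, 0.36 log2 units in hippocampus, and the others at most 0.05. Tmem87a, Baiap2l1 and AI506816 were at the floor in these strains. They entered the test only through the C3H HeJ or BalbC/J arrays in which they were high, so their outcome was fixed in advance. The comparison could show a difference only for Rbm45, and the counts of members cannot be set against the shares over all probe sets.

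The second is testing for prepulse inhibition. No member passed in any tissue (limma, adjusted p 0.98 to 1.00), and neither did any other probe set, so percent called was 0 in each tissue. At an unadjusted p under 0.05 hippocampus had 1272 probe sets, striatum 1141 and brainstem 679, with no member among them. Tested minus untested was -0.04 ± 0.07 (SE) in hippocampus, -0.10 ± 0.13 in striatum and -0.13 ± 0.08 in brainstem for Tmem87a. For Baiap2l1 1424951_at in hippocampus it was 0.01 ± 0.06. These estimates average over all 6 strains. Where a member was at the floor no change could show, so for Tmem87a, Baiap2l1 and AI506816 they are drawn toward no difference. With C3H HeJ and BalbC/J arrays only, Tmem87a gave -0.10, -0.34 and -0.33 in the 3 tissues, and no probe set was called. Rbm45 in striatum had the largest estimate, -0.45 ± 0.32. With C3H HeJ and BalbC/J arrays only, that estimate was -1.57 ± 0.65 (limma, adjusted p = 0.63). It rested on the tested C3H HeJ array at 9.51, the lowest of 3; the tested BalbC/J array at 11.66 lay between its 2 untested ones. Without that C3H HeJ array the estimate over all strains was 0.03.

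The third is the tissue profile within each high strain. The tissues appear to have been normalized apart, since the lowest values of the arrays differ by tissue, and 85.8% of probe sets passed the tissue test within C3H HeJ and 87.0% within BalbC/J, so a call by itself says little. Both Baiap2l1 probe sets passed in both strains. Hippocampus exceeded striatum by 6.83 ± 0.23 (SE) log2 units on 1424951_at and 6.83 ± 0.18 on 1451539_at in C3H HeJ, and by 6.50 ± 0.23 and 6.99 ± 0.18 in BalbC/J. Brainstem was below hippocampus by a similar amount, -6.67 and -7.22 on 1424951_at. These are differences between signal in hippocampus and a floor elsewhere. The SEs and p-values of the tissue tests come from 1 fit of all 54 arrays. They pool the spread of arrays with signal and of arrays at the floor, where values hardly vary. They can therefore misstate the spread of the groups compared. On 1424951_at the SD was 1.22 in BalbC/J striatum and 0.12 in BalbC/J hippocampus.

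AI506816 in BalbC/J was lower in striatum than in either other tissue, by 2.95 ± 0.12 (SE) against hippocampus and 2.87 ± 0.12 against brainstem (limma, adjusted p = 1.92e-24). Most of the pooled arrays were at the floor for this gene. Over the 3 BalbC/J arrays the SD was 0.52 in striatum, 0.13 in hippocampus and 0.10 in brainstem. The SE and p thus understate the spread between the pools compared. Hippocampus and brainstem differed by -0.08. In C3H HeJ all 9 arrays were at the floor, so its tissue profile could not be read.

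Rbm45 was lowest in striatum in both strains, and its mean was also lowest there in each of the C57 strains. In C57BL6/J the means were 8.53 in hippocampus, 8.39 in striatum and 9.53 in brainstem, so this profile is not particular to the high strains. Brainstem exceeded striatum by 1.55 ± 0.45 (SE) in C3H HeJ (limma, adjusted p = 0.00534) and by 1.42 ± 0.45 in BalbC/J (adjusted p = 0.0147). The call in C3H HeJ was lost without its tested striatum array, at an adjusted p of 0.152. In BalbC/J it was lost without the second untested striatum array, at 0.0756, and after quantile normalization of all 54 arrays, at 0.0697.

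Tmem87a was higher in BalbC/J brainstem than in BalbC/J striatum by 1.05 ± 0.17 (SE) and than in hippocampus by 1.12 ± 0.17 (limma, adjusted p = 1.29e-07). In C3H HeJ the tissues did not pass (limma, adjusted p = 0.0627), with brainstem 0.27 ± 0.17 above hippocampus. These SEs also pool arrays at the floor. The SD was 0.11, 0.65 and 0.43 in C3H HeJ hippocampus, striatum and brainstem. In BalbC/J it was 0.32, 0.15 and 0.05. The call within C3H HeJ was made in 6 of 15 alternatives: after quantile normalization (adjusted p = 0.00127), after median centring (5.81e-04), with a replicate block (0.0320), and without the tested striatum array (4.45e-04), the tested brainstem array (0.0261) or the second untested brainstem array (0.0235). The largest difference between tissues in C3H HeJ was 0.43 and ranged from 0.27 to 0.78 over the alternatives.

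Beside these brainstem values of Tmem87a, the mean of the cerebellar markers, 6 of 7 of which were above the floor on every brainstem array, was also higher in BalbC/J than in C57BL6/J. It lay 1.05, 1.22 and 0.25 log2 units above the median brainstem array in BalbC/J (8.79 to 9.76) and 0.91, 0.72 and 0.51 below it in C57BL6/J (7.63 to 8.03). In C3H HeJ it ranged from 8.31 to 12.47. The part of cerebellar tissue in the brainstem values was not tested.

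Between the 2 high strains the tissue profiles are given as a description, since these levels chose the members. For Tmem87a brainstem minus hippocampus was 0.86 ± 0.23 (SE) larger in BalbC/J than in C3H HeJ, and brainstem minus striatum 1.20 ± 0.23 larger. For Rbm45 the same quantities were 0.33 ± 0.61 and -0.13 ± 0.61.

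**Figure D3:**
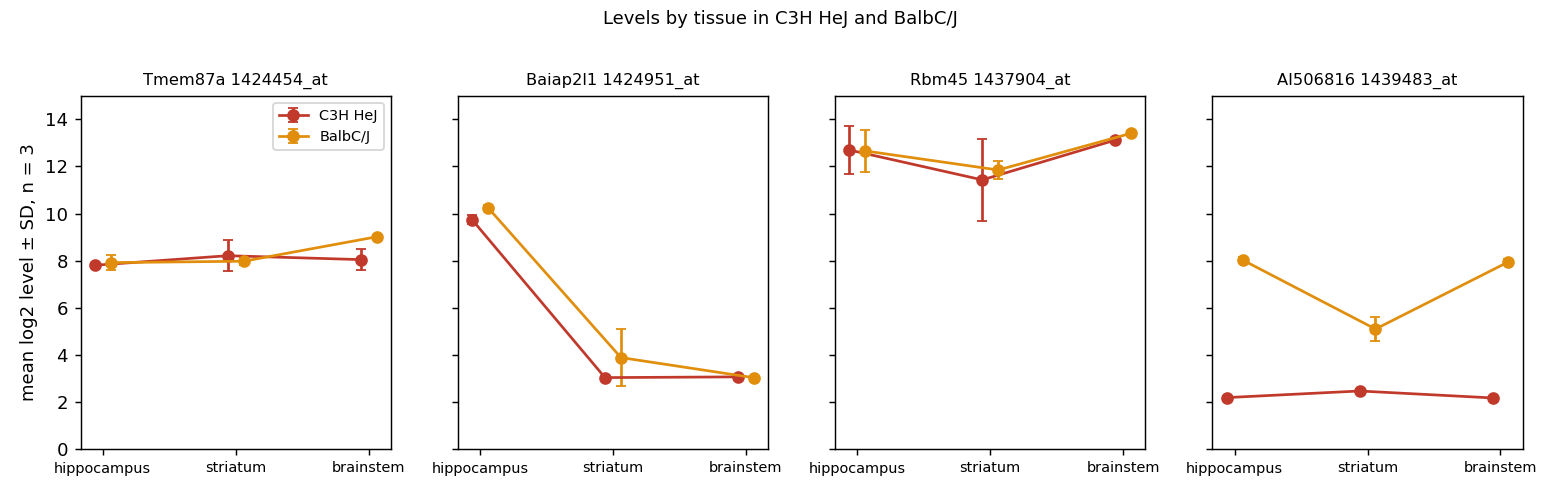
Mean log2 level ± SD over 3 arrays (vertical axis) of 1 probe set per member in hippocampus, striatum and brainstem of C3H HeJ and BalbC/J. Baiap2l1 falls from 9.74 and 10.25 in hippocampus to the floor in brainstem, AI506816 dips in BalbC/J striatum, and Tmem87a separates the strains in brainstem, at 8.04 and 9.01.

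Genes next to the members on the chromosome were compared between each high strain and C57BL6/J; both comparisons use the same C57BL6/J arrays. For each member the 3 nearest genes with a probe set on either side were taken, by their brightest probe set. For scale, of all probe sets tested in C3H HeJ hippocampus 19.8% passed, 8.64% as higher and 11.2% as lower. The C3H HeJ striatum shares were 16.7%, of which 11.0% higher and 5.70% lower, and the brainstem shares 18.4%, 11.2% and 7.13%. For BalbC/J the same shares (passed, higher, lower) were 14.5%, 6.02% and 8.43% in hippocampus. Its striatum gave 7.48%, 3.67% and 3.81%, and its brainstem 10.8%, 6.64% and 4.16%.

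Beside Tmem87a, Vps39, a subunit of the HOPS complex that tethers membranes to lysosomes, rose in C3H HeJ in all tissues, by 1.31 ± 0.09 (SE) log2 units in hippocampus, 1.05 ± 0.10 in striatum and 1.44 ± 0.08 in brainstem (limma, adjusted p = 3.97e-08, 3.73e-06 and 1.84e-08). In BalbC/J it differed by 0.13, 0.10 and 0.10 and did not pass. Capn3, a calcium-dependent protease, fell in C3H HeJ hippocampus by 1.63 ± 0.18 and in brainstem by 0.53 ± 0.09, and differed by 0.01 and 0.18 in BalbC/J. Ganc, an alpha-glucosidase, rose in C3H HeJ brainstem by 0.45 ± 0.12, a call lost in 4 of 24 alternatives, with a difference of 0.28 without the first untested C3H HeJ array. None of the 3 or 4 neighbours tested passed in BalbC/J in any tissue, with 0, 0 and 1 at an unadjusted p under 0.05. Tmem87a itself was high in both strains. Whether Vps39 differs between the 2 strains was not tested as such. The Capn3 probe set is of the kind (_x_at) that can share probe letters with other transcripts.

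Around AI506816, which was on in BalbC/J alone, Pus7, a pseudouridine synthase of RNA, rose in BalbC/J by 0.64 ± 0.07 (SE) in hippocampus, 0.38 ± 0.10 in striatum and 0.46 ± 0.08 in brainstem (limma, adjusted p = 1.43e-05, 0.0421 and 0.00144). In C3H HeJ it differed by 0.17, 0.17 and 0.17 and did not pass. The striatum call was lost in 13 of 24 alternatives, with adjusted p up to 0.157. The noncoding neighbour 5031425E22Rik fell by 0.72 ± 0.20 in BalbC/J hippocampus, a call lost in 6 of 24 alternatives, with a difference of -0.42 without the tested C57BL6/J array. All 6 neighbours were tested in each tissue; 3 passed in BalbC/J hippocampus, 1 in striatum and 2 in brainstem, and 1, 1 and 2 in C3H HeJ. The others were Tomm7, of the mitochondrial import pore, in BalbC/J hippocampus (0.16 ± 0.05, lost in 10 of 24 alternatives) and C3H HeJ striatum (0.32 ± 0.09, lost in 6 of 24), and Kmt2e, a SET-domain protein, in C3H HeJ hippocampus (0.34 ± 0.07) and brainstem (0.46 ± 0.13, lost in 3 of 24, and 0.26 without the array rich in cerebellar markers). Srpk2, a kinase of splicing factors, rose in brainstem by 0.19 ± 0.05 in C3H HeJ and 0.19 ± 0.05 in BalbC/J, calls lost in 2 and 5 of 24 alternatives.

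Around Baiap2l1 the calls were few and small. Nptx2, a secreted pentraxin of excitatory synapses, fell by 0.37 ± 0.10 (SE) in C3H HeJ hippocampus, and Tmem130 by 0.20 ± 0.07 (limma, adjusted p = 0.0126 and 0.0456), the latter call lost in 17 of 24 alternatives, with a difference of -0.13 without the tested C57BL6/J array, and the former in 1. No neighbour passed in striatum or brainstem or in BalbC/J. In BalbC/J hippocampus Nptx2 differed by -0.25. None of the neighbours of Rbm45 passed in any of the 6 comparisons, with 4 or 5 of 6 tested in each and at most 2 at an unadjusted p under 0.05. The contrast of Rbm45, at 3.04 to 4.17 log2 units, thus stood beside genes whose median difference was between -0.03 and 0.24.

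**Figure D4:**
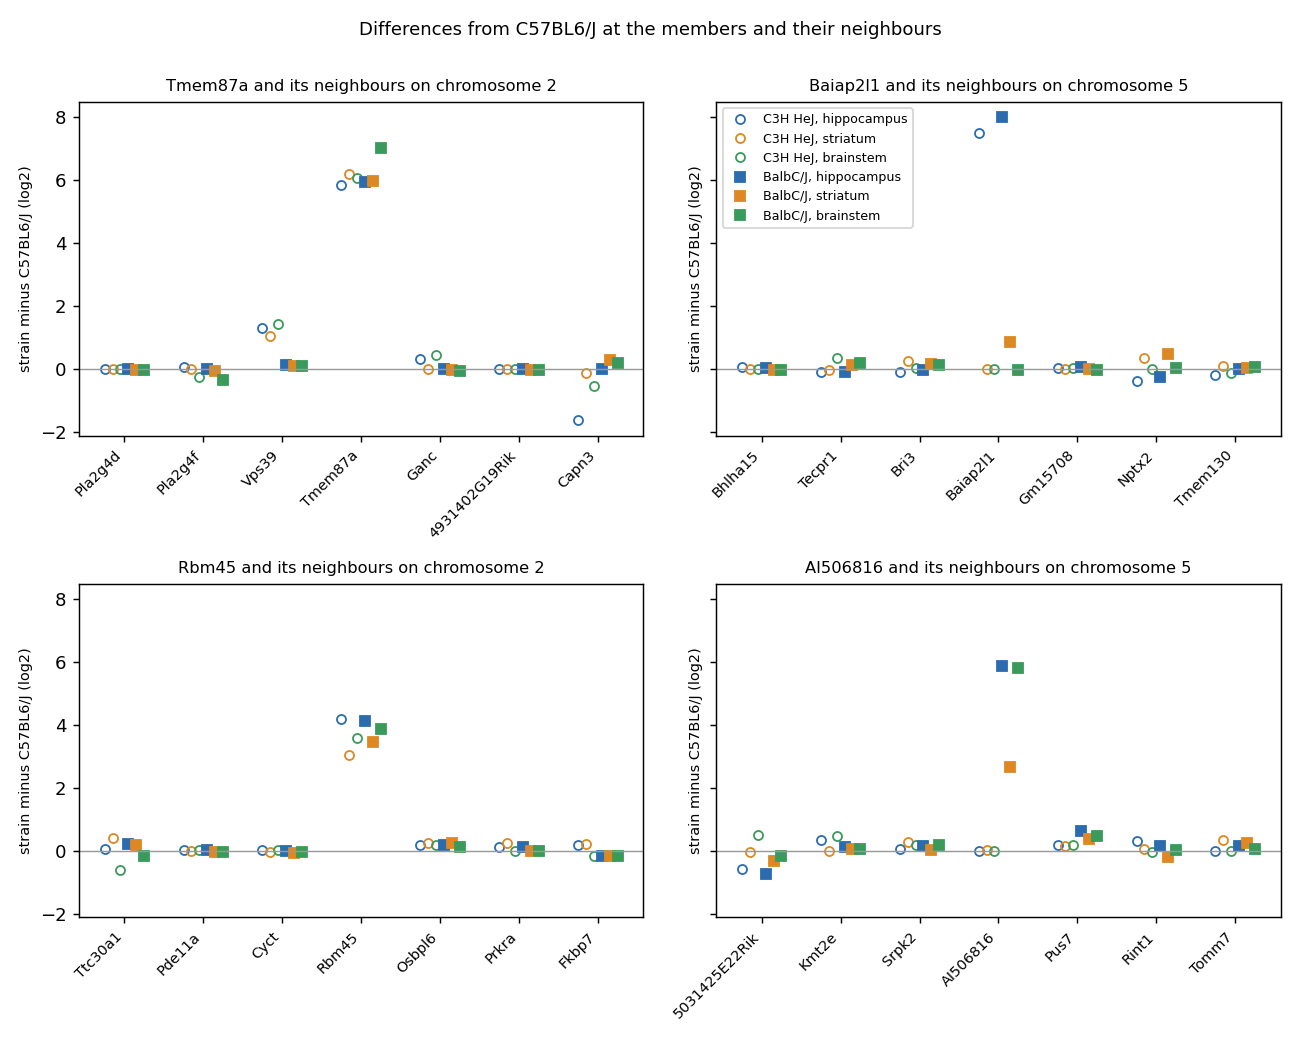
Strain mean minus C57BL6/J mean (vertical axis, log2) for each member and the 3 nearest genes on either side that have a probe set, in chromosome order (horizontal axis, not to scale); open circles are C3H HeJ, filled squares BalbC/J and colours tissues. Baiap2l1 in C3H HeJ hippocampus stands at 7.49, while most neighbours lie near 0, apart from Vps39 and Capn3 in C3H HeJ.

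Genes that share a pathway with a member were read from lists chosen with earlier results of these data known, each gene by its brightest probe set. Of the GOST family of Tmem87a, 5 of 6 other genes had a probe set and were tested; none passed in either strain in any tissue, with at most 2 at an unadjusted p under 0.05 and medians between -0.09 and 0.07. Of 7 genes of Golgi pH and ion regulation, 1 passed in each tissue in C3H HeJ and 1, 0 and 1 in BalbC/J hippocampus, striatum and brainstem. Atp2c1, the calcium and manganese pump of the Golgi, rose by 0.19 ± 0.06 (SE) in C3H HeJ hippocampus and 0.22 ± 0.06 in BalbC/J hippocampus and fell by 0.26 ± 0.07 in C3H HeJ striatum. Its first call was lost in 15 of 24 alternatives and the others in 4 each. Slc9a7, a sodium-proton exchanger of the Golgi, rose by 0.49 ± 0.15 in C3H HeJ brainstem, and Atp6v0a1, a subunit of the proton pump, by 0.26 ± 0.07 in BalbC/J brainstem, each lost in 7 of 24 alternatives.

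Of the I-BAR family and actin partners of Baiap2l1, 14 of 16 other listed symbols had a probe set. The 16 include Mtss1l and Mtss2, which are 2 symbols of 1 gene. In hippocampus, where Baiap2l1 was high, 2 fell and none rose of 14 in C3H HeJ, and none passed in BalbC/J, with 6 at an unadjusted p under 0.05. Dlg4, the scaffold of the postsynaptic density, fell by 0.51 ± 0.16 (SE) in C3H HeJ hippocampus (limma, adjusted p = 0.0405), a call lost in 10 of 24 alternatives and at 0.232 without the tested C57BL6/J array. Eps8, the actin-capping partner of Baiap2l1, rose by 0.65 ± 0.12 in C3H HeJ brainstem, where Baiap2l1 was at the floor, and by 0.45 without the C3H HeJ array rich in cerebellar markers. In striatum 1 rose and 1 fell of 14 in C3H HeJ, with 6 at an unadjusted p under 0.05, and none passed in BalbC/J, with 1 at an unadjusted p under 0.05. In brainstem 3 of 13 tested rose in C3H HeJ and 2 in BalbC/J, and none fell.

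Of the RNA-binding and inclusion proteins listed with Rbm45, 11 of 13 others had a probe set and were tested. Taf15, an RNA-binding protein of the FET family, fell in C3H HeJ by 2.33 ± 0.13 (SE) in hippocampus, 1.32 ± 0.12 in striatum and 2.22 ± 0.21 in brainstem (limma, adjusted p = 4.62e-09, 3.61e-06 and 4.55e-06), and differed by 0.02, 0.11 and 0.36 in BalbC/J. Tardbp, which encodes TDP-43, fell by 0.36 ± 0.11 in C3H HeJ striatum, a call lost in 6 of 24 alternatives. Tia1, a stress granule protein, rose by 0.40 ± 0.11 in C3H HeJ brainstem and did not pass without the array rich in cerebellar markers (0.24, adjusted p = 0.0639). In C3H HeJ 1 of 11 fell in hippocampus, 3 fell in striatum, and 2 rose and 1 fell in brainstem. None of the 11 passed in BalbC/J in any tissue, with 0, 1 and 0 at an unadjusted p under 0.05.

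The probe sets most like each member were ranked by Pearson's r over the 18 strain-by-tissue means after centring each tissue on its own mean, among 21047 probe sets of other single genes tested in all tissues (21048 for Baiap2l1). This is a description; the points share arrays and mice. Tmem87a was most like Pdxdc1 on 1419327_at (r = 0.998), Nrd1 on 1449716_s_at (0.996) and Ociad1 on 1424952_at (0.996), and 54 probe sets exceeded 0.95. Rbm45 was most like the same Pdxdc1 probe set (0.997), Lsm12 on 1427998_at (0.994) and Tmem87a itself (0.991), with 49 above 0.95. Any probe set that splits C3H HeJ and BalbC/J from the C57 strains scores high here, so the large number is a property of that split.

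AI506816 was most like Ntrk2 on 1420837_at (r = 0.983), Rmnd1 on 1440281_at (0.981) and Golm2 on 1440248_at (0.969), with 7 above 0.95. For Baiap2l1 none exceeded 0.95; the nearest were Vrk2 on 1453343_s_at (0.877), Gm2824 on 1459006_a_at (0.872) and Fbn2 on 1454830_at (0.867). Of these, Fbn2, which encodes fibrillin-2 of elastic microfibrils, differed from C57BL6/J in BalbC/J hippocampus by 1.30 and in C3H HeJ hippocampus by 0.43.

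Several of these likenesses held for 1 probe set of a gene and not for the others. Pdxdc1 on 1419327_at was 7.81 log2 units higher in C3H HeJ than in C57BL6/J hippocampus, and on 1452705_at it differed by -6.62. Nrd1 differed by 1.57 on 1449716_s_at and -0.09 on 1424391_at, and Ociad1 by 1.65 on 1424952_at and -0.18 on 1449889_a_at. Ntrk2, the receptor of brain-derived neurotrophic factor, differed by 3.76 between BalbC/J and C57BL6/J hippocampus on 1420837_at, while its 7 other probe sets differed by -0.60 to 0.36. Tmem87a, Rbm45 and AI506816 have a single probe set, so no such check between probe sets can be made for them. Neighbours and list genes, Vps39 and Taf15 among them, were read on 1 probe set each, and no such check was made for them. The letters of the probes were not used here, and whether strain differences under a probe contribute was not tested.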

How the data were processed

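The deposited values are log2 signals of an Affymetrix 3′ expression array. Per the submitters' processing notes, R 2.6.1, affy 1.16.0, RMA, GCRMA 2.10.0 and limma 2.12.0 were used; which of these made the log2 values was not stated there. Probe sets were named from the platform annotation (34945 with 1 symbol, 932 with several, 9160 unnamed), and RefSeq tables gave promoters and neighbours. The members and gene lists were chosen with earlier results of these data known. Neighbours and list genes were read by their brightest probe set. Named genes were the members, their 3 neighbours on each side, up to 3 called genes per list by the largest absolute difference, and the 3 most like probe sets. Of the genes this rule names, 1 is not reported here.

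Each tissue was fitted with limma 3.58.1 in R 4.3.3 (18 arrays, strain plus testing), and all 54 arrays in a joint fit for tissue effects, with an intensity trend and Benjamini-Hochberg adjustment over all probe sets above the 40th percentile on at least 3 arrays. A call is an adjusted p under 0.05. The code was tested on simulated data. Tissues of a strain share mice but were treated as independent. Deviations of same-numbered arrays had a median correlation of 0.0091, 0.0873 and 0.0026 for the 3 pairs of tissues. Single values ranged from -0.33 to 0.31 between hippocampus and striatum. Arrays with the same number need not hold the same mice, so these correlations cannot show that the tissues are independent. The labels do not tie a pool to a named mouse, so p-values measure the spread between pools. That spread is pooled over all arrays of a fit, those at the floor included. The number of arrays limits the precision. Alternatives were other normalizations, filters, a fit without the trend, 1 probe set per gene, a replicate block and each array left out. The testing fit on C3H HeJ and BalbC/J alone was added after seeing the data. A test of the tissue profiles between those strains, also added then, was dropped because it used the levels that chose the members. Its estimates are given without p. The tissue tests within each high strain use the same levels, and their p-values are given as a description only.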

Additional observations from a re-analysis of the deposited data

How the results depend on the processing

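Counts of called probe sets fell with 1 probe set per gene, where fewer were tested: 1439, 649 and 753 in hippocampus, striatum and brainstem for the 3 C57 strains (from 4168, 1441 and 1795), 2212, 2167 and 2408 for C3H HeJ (from 5444, 4603 and 5053), 1854, 946 and 1534 for BalbC/J (from 3974, 2067 and 2971), and 11490 and 11710 for the tissue effects. With 1 array left out, striatum counts ranged from 1119 to 2582 (highest without the tested C57L/J array) among the C57 strains, 2949 to 5155 for C3H HeJ and 1371 to 2228 for BalbC/J (both lowest without the second untested C57BL6/J array). Brainstem counts ranged from 1406 to 3471 and, for BalbC/J, 2016 to 5522 (both highest with the array rich in cerebellar markers left out), and for C3H HeJ from 3246 (without the first untested C57BL6/J array) to 7338. The cause was not tested. Quantile normalization over 54 arrays moved the Tmem87a difference from C57BL6/J to 5.684 in C3H HeJ hippocampus, 6.172 in BalbC/J striatum and 6.975 in BalbC/J brainstem, and that of Rbm45 in brainstem to 3.5 and 3.759. Uncalled testing effects changed sign for AI506816 in striatum (-0.007259 after quantile normalization, -0.0008321 after median centring, -0.05913 with C3H HeJ and BalbC/J only) and for Rbm45 in brainstem (0.01162 with those strains only). With 1 array left out they ranged in hippocampus from -0.02289 to 0.03385 for Baiap2l1 1424951_at and -0.3759 to 0.1988 for Rbm45, in striatum from -0.1615 to 0.06285 for Tmem87a, -0.5956 to 0.03152 for Rbm45 and -0.0665 to 0.07019 for AI506816, and in brainstem from -0.1243 to 0.03821 for Rbm45. The replicate block gave 5218, 4455 and 4762 calls for C3H HeJ, 3817, 1915 and 2796 for BalbC/J, and 3947, 1393 and 1677 among the C57 strains. With it the tissue effect of Tmem87a within C3H HeJ was called (0.4069, adjusted p = 0.0320 in limma), and Atp2c1 and Tmem130 in C3H HeJ hippocampus, Tomm7 in BalbC/J hippocampus and Pus7 in BalbC/J striatum were lost (adjusted p = 0.0534, 0.0577, 0.0527 and 0.0551). Genes at the floor have no measured order, and 3 pools per group limit every estimate.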
